A study of Rattus norvegicus with 6 samples.

Results

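The potassium channel genes described here are the genes whose symbol begins with Kcn, which names channel subunits and the proteins built into channels with them, except Kcnj13 and Kcne2, which were left out by definition. The array files hold no gene name column, so each probe was named through its RefSeq accession, and 115 probes of 88 genes were found among 30367 probes and 15154 named genes. Where a gene had several probes, the brightest over the 6 arrays stands for it. Hippocampal RNA of male Wistar rats was read on 1-colour Agilent arrays. The rats of the 3 orchidectomized samples lost both testes at 2 months of age, and those of the 3 sham samples had a sham operation at that age. Tissue of both groups was taken 2 weeks later under ketamine and medetomidine. The labels call the samples biological replicates and do not say whether each is 1 animal or a pool, so p-values measure the spread between these 6 arrays, whose number limits the precision of every comparison.

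Potassium channels let potassium leave the cell and so set the resting potential, end action potentials and limit repetitive firing. In the hippocampus, voltage-gated Kv channels act in axons, somata and dendrites of neurons, and calcium-activated BK and SK channels shape afterpotentials. The Kir family of inward rectifiers includes G-protein-gated and glial channels, and K2P channels carry leak current. Some members of the family are better known from epithelia such as kidney, gut and choroid plexus, where they recycle potassium across the cell layer.

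Values are log2 signals relative to the 75th percentile of the same array, and differences are orchidectomized minus sham in log2 units. Between 23785 and 26173 of the probes were well above background on an array. The array labelled sham 2 stood apart from the rest. It correlated with the other 5 arrays at 0.876 to 0.880 across probes, which are not independent replicates, and those 5 correlated with each other at 0.983 to 0.993. On sham 2 the 7 choroid plexus marker genes lay a median of 9.04 above the median of the other 5 arrays, with 6 of 7 higher by over 1 log2 unit, and 5 of 5 glutamatergic neuron markers were lower by over 1, with a median of -7.57. The other 5 arrays had all 5 glutamatergic, all 5 GABAergic and all 6 astrocyte markers well above background. Counts over the channel genes are therefore given with and without sham 2, differences of single genes are without it unless sham 2 is named, and in bulk tissue fewer cells of a type and less RNA per cell cannot be told apart.

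Of the 88 genes, 60 were well above background on all 6 arrays and 79 on the 5 arrays other than sham 2. Kcna10, a Kv1 family gene, and Kcnj15, a Kir family gene, were well above background on none of the 6 arrays. In each comparison 81 genes passed the filter, which asks for all arrays of at least 1 group, and the 7 that did not were Kcna10, Kcne3, Kcnj2, Kcnj15, Kcnk15, Kcnk18 and Kcnmb1. Without sham 2 only Kcne1 and Kcnn4 of the 81 passed through 1 group alone, the sham group. With sham 2 the number was 21: these 2, and 19 genes that were well above background on all of the other 5 arrays and not on sham 2.

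The first question was whether orchidectomy was followed by a different level of any of these transcripts. Over 6 arrays limma called 0 of the 81 channel genes at a Benjamini-Hochberg adjusted p under 0.05, against 0% of the 24634 probes tested. Their smallest adjusted p from limma was 0.774. Before adjustment, 1 channel gene, 1.23%, had a p under 0.05, as did 0.731% of all probes. The difference was above 0 for 67 of the 81 channel genes and below 0 for 14, with a median of 0.79. Over all probes tested, the median was -0.02 and 48.4% were above 0. Among the 81 were 19 genes that passed the filter through the orchidectomized group alone, since they were not well above background on sham 2. Passing in this way favours a positive difference. Of the 60 genes well above background on all 6 arrays, 48 were above 0 and 12 below, with a median of 0.51. All probes that passed this stricter filter had a median of -0.04.

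Without sham 2 the channel genes were split about evenly. The difference was above 0 for 43 and below 0 for 38, with a median of 0.01 and a range of -0.76 to 0.52, beside a median of -0.02 over all probes tested. With normexp background correction the split was 60 above and 21 below, and the median of all probes moved to 0.08. Limma called 0 of 81 channel genes, against 0% of the 25212 probes tested, and the channel genes' smallest adjusted p was 0.988. Before adjustment, 5 channel genes, 6.17%, had a p under 0.05, 1 higher and 4 lower, as did 2.71% of all probes. When the brightest probe was chosen without sham 2, which changes it for Kcnma1, Kcnn1 and Kcnq1, the counts were 0 higher and 4 lower. No channel gene differed by over 1 log2 unit, against 38 of 81 with sham 2 included. The median standard error of a channel gene's difference was 0.20 without sham 2 and 0.77 with it.

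**Figure D1:**
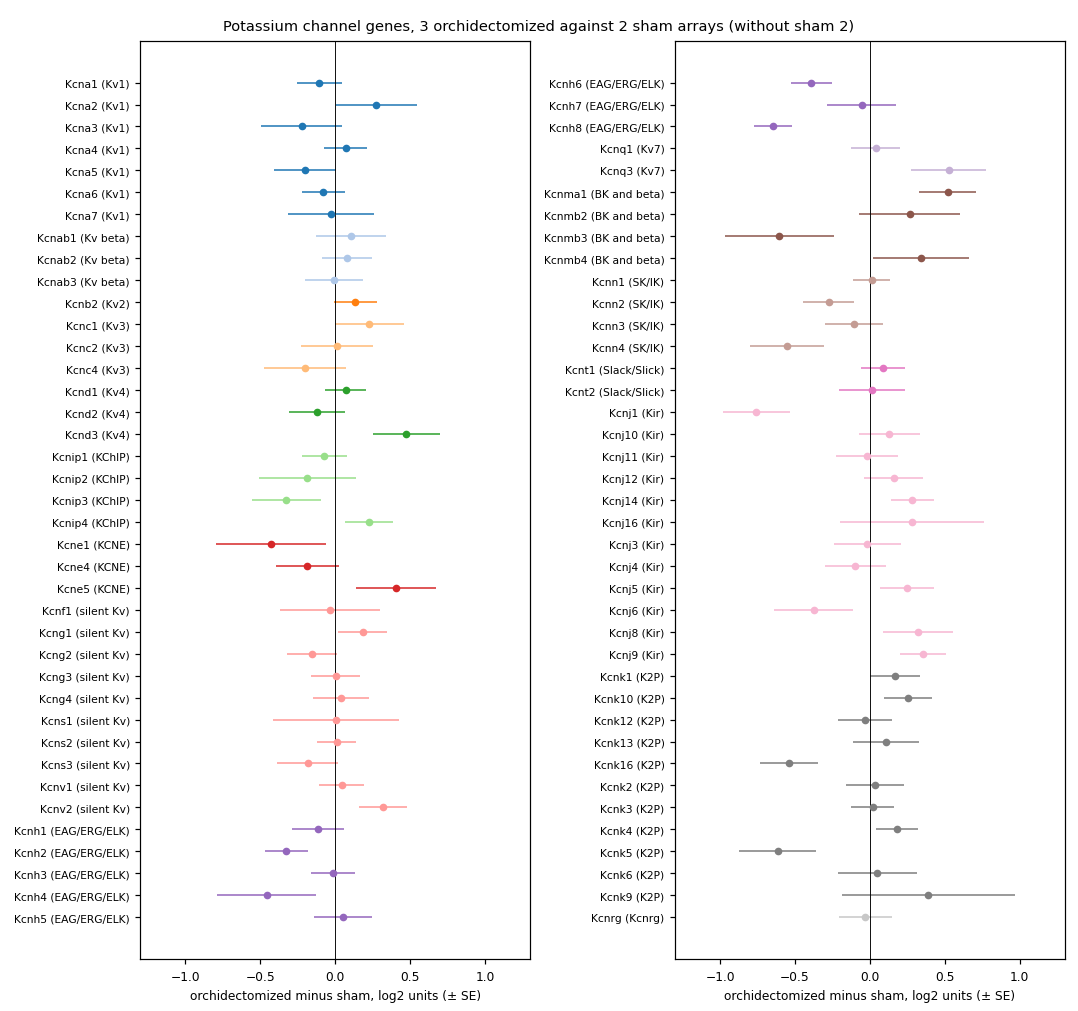
Difference between 3 orchidectomized and 2 sham arrays (horizontal axis, log2 units) for 78 of the 81 tested channel genes, grouped and coloured by subfamily; points are limma estimates and bars 1 standard error. The points lie between -0.76 and 0.52 around a median of 0.01, and none passed the adjusted threshold.

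Groups that did not overlap were seen without sham 2 in 15 channel genes. The 3 orchidectomized arrays lay above both sham arrays in 6 of 81, 7.41%, where 6.24% of all probes did so, and below both in 9 of 81, 11.1%, where 10.0% of all probes did so. Both shares were near those of all probes. Kcnn4, among the 9 lower genes, passed the filter through the sham group alone, where it was higher. With the probe chosen without sham 2 the counts were 5 higher and 9 lower. With sham 2 included the counts were 6 higher, 7.41% against 3.26% of all probes, and 3 lower, 3.70% against 4.74%. Sham 2 lay below all of the other 5 arrays for 69 of 82 channel genes, which favours higher over lower in these counts. Kcnk10, among these 6 higher genes, was not well above background on sham 2. It passed the filter with sham 2 through the orchidectomized group alone, where it was higher.

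Promoter sequences are shown for 3 of the 5 channel genes with an unadjusted p under 0.05 without sham 2: Kcnh8, which had the smallest p, Kcnma1, which was the only one of the 5 with a positive difference, and Kcnj1, which was the only one of the 5 to hold a searched motif. Each runs from 250 bases before to 50 bases after the gene's start on the GRCr8 assembly, as given by RefSeq, on the strand of the gene. Kcnh8 lies on chr9:5742433-5742732 on the + strand, Kcnj1 on chr8:39037742-39038041 on the + strand and Kcnma1 on chr15:351675-351974 on the + strand. Capitals mark the motifs found.
Kcnh8: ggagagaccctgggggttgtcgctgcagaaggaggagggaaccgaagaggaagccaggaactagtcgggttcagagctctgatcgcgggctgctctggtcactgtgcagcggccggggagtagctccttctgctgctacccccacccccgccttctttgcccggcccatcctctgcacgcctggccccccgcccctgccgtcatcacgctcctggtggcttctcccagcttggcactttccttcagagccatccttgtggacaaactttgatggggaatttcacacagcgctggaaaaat
Kcnma1: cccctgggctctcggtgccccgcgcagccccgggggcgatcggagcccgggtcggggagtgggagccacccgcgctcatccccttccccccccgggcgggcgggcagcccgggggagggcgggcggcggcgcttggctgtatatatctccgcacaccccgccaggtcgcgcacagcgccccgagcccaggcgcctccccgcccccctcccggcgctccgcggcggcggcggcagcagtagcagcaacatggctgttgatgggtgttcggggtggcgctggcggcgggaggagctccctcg
Kcnj1: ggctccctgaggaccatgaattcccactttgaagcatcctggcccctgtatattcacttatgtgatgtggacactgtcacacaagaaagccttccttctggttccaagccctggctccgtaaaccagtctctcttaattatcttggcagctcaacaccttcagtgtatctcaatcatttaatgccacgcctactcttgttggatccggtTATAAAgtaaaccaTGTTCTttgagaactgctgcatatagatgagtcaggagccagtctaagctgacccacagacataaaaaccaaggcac
The Kcnj1 window held TGTTCT, which is the reverse complement of the androgen receptor half-site AGAACA, and TATAAA, which is the core of a TATA box. GC content was 61.7% for Kcnh8, 78.3% for Kcnma1 and 46.0% for Kcnj1.

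Of the 88 genes, 60 had a promoter in the table. Their median GC content was 61.3% and their median number of CG pairs 13.5, against 51.7% and 7 over 33465 promoters of the same length. The motifs below were searched on both strands, and the half-site is also the first part of the palindrome. AGAACA was found in 8 of the 60 channel promoters, 13.3%, and in 20.7% of all promoters. TATAAA was found in 1 of the 60, 1.67%, which was Kcnj1, and in 14.2% of all. The palindromic androgen response element, AGAACA and TGTTCT with 3 bases between them, was found in 0 of the 60 and in 0.0149% of all, and the cAMP response element TGACGTCA in 0 of the 60 and in 1.83% of all. A match of letters is a description of the window and not a binding site.

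Among the Kv1 genes, whose channels sit in axons and set the threshold and delay of firing, Kcna1 had 3.48, 3.41 and 3.17 in the orchidectomized samples and 3.49, 2.56 and 3.42 in sham 1, sham 2 and sham 3. Its values lay within 0.33 of each other on the 5 arrays other than sham 2. Kcna2 had -0.40, -0.45 and 0.34 on orchidectomized 1 to 3, against -0.50, -5.79 and -0.39 on sham 1 to 3. Orchidectomized 3 was the highest of the 6, the other 4 arrays besides sham 2 lay close together, and the difference without sham 2 was 0.27 with a standard error of 0.27. Kcna4, which gives a rapidly inactivating current, had -0.36, -0.25 and -0.10 in the orchidectomized samples and -0.38, -9.43 and -0.22 in sham 1, sham 2 and sham 3. On sham 2 the probe was not well above background, the groups overlapped without that array, and the median over the 7 tested Kv1 genes was -0.08 without sham 2. The beta subunits bind Kv1 channels in the cytoplasm. Kcnab1 had 2.41, 2.50 and 3.01 on orchidectomized 1 to 3, against 2.34, 1.61 and 2.72 on sham 1 to 3. Kcnab2 had -0.94, -0.71 and -1.07 in the orchidectomized samples and -1.11, -4.22 and -0.86 in sham 1, sham 2 and sham 3. Their groups overlapped, and the differences of 0.11 and 0.08 without sham 2 were within the standard errors of 0.23 and 0.17.

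The Kv3 genes Kcnc1 and Kcnc2 allow fast-spiking interneurons to fire at high rates. Kcnc1 had -0.16, -0.29 and 0.41 on orchidectomized 1 to 3, against -0.26, -8.63 and -0.22 on sham 1 to 3. Kcnc2 had 0.55, 0.56 and 1.17 in the orchidectomized samples and 0.60, -7.12 and 0.90 in sham 1, sham 2 and sham 3. Both had their highest value on orchidectomized 3 and their lowest on sham 2, and without sham 2 they differed by 0.23 and 0.01. Kcnc4, another Kv3 gene, differed by -0.20 with a standard error of 0.27.

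The Kv4 genes carry the dendritic A-type current, and the KChIP proteins, which bind calcium, bring Kv4 channels to the membrane. Kcnd2, the principal Kv4 gene of pyramidal cells, had 2.72, 2.79 and 2.33 on orchidectomized 1 to 3, against 2.83, -5.30 and 2.65 on sham 1 to 3, and its groups overlapped without sham 2. Kcnd3, which is found in interneurons and other cells, had -1.78, -1.81 and -1.43 in the orchidectomized samples and -1.86, -6.85 and -2.43 in sham 1, sham 2 and sham 3. All orchidectomized values of Kcnd3 were above all sham values, with orchidectomized 2 and sham 1 the closest pair. The difference without sham 2 was 0.47 ± 0.22 (SE), which limma did not call (adjusted p 0.988). The 4 KChIP genes differed between -0.33 and 0.23 without sham 2, none without overlap. Kcnip1 had -3.22, -3.18 and -2.95 on orchidectomized 1 to 3, against -3.12, -6.09 and -2.97 on sham 1 to 3. Kcnip2 had -0.80, -0.85 and -1.73 in the orchidectomized samples and -1.13, -7.75 and -0.75 in sham 1, sham 2 and sham 3. Kcnip4 had -0.39, -0.45 and -0.17 on orchidectomized 1 to 3, against -0.43, -8.21 and -0.70 on sham 1 to 3. Sham 2 was the lowest array for each, and Kcnip2 was lower on orchidectomized 3 than on the other 4 arrays besides sham 2. Kcnip3, which also encodes the transcriptional repressor DREAM, had -2.15, -2.14 and -1.89 in the orchidectomized samples and -1.40, -3.05 and -2.06 in sham 1, sham 2 and sham 3. Sham 1 was its highest array, and its difference was 0.01 when the orchidectomized arrays were set against sham 3 alone.

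Kcnq3 encodes a subunit of the channel that carries the M-current, which acetylcholine turns off through muscarinic receptors. It had 2.52, 1.92 and 2.64 on orchidectomized 1 to 3, against 1.69, -5.37 and 1.99 on sham 1 to 3. The lowest orchidectomized value was under the highest sham value, so the groups overlapped, and the difference of 0.52 without sham 2 had a standard error of 0.25. The second Kcnq3 probe differed by -0.06.

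The EAG, ERG and ELK genes, which encode slowly gated Kv channels, had mostly negative differences without sham 2, none of them called. Of 8 tested genes 7 were below 0, with a median of -0.22, where 44.9% of all probes were above 0, and the groups did not overlap in 3, all lower, where 10.0% of all probes were lower without overlap. With sham 2 included 7 of the 8 were above 0. Kcnh8, an ELK gene, had -5.53, -5.55 and -5.42 in the orchidectomized samples and -4.80, -9.71 and -4.91 in sham 1, sham 2 and sham 3. The 3 orchidectomized arrays lay close together and below sham 1 and sham 3, while sham 2 was the lowest and not well above background. The difference was -0.64 ± 0.13 (SE; limma p 0.00267, adjusted p 0.988). It was -0.63 between orchidectomized 3 and sham 1, which shared a slide, -0.70 within the first scan day and -0.59 when only sham 3 was used. With sham 2 included the difference was 0.98 with a standard error of 1.38.

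The ERG genes encode channels that dampen repetitive firing and in the heart help end the action potential. Kcnh6 had -2.55, -2.60 and -2.54 on orchidectomized 1 to 3, against -2.05, -4.40 and -2.30 on sham 1 to 3. Its orchidectomized values lay close together and below sham 1 and sham 3, with a difference of -0.39 ± 0.14 (SE; limma adjusted p 0.988) without sham 2, and sham 2 was the lowest array. Kcnh2 had -0.71, -0.69 and -0.76 in the orchidectomized samples and -0.54, -0.85 and -0.25 in sham 1, sham 2 and sham 3. Sham 2 was its lowest array, so the groups overlapped with sham 2 and did not without it, and the second Kcnh2 probe also had a negative difference of -0.22. Kcnh7, the third ERG gene, had -2.35, -2.34 and -2.96 on orchidectomized 1 to 3, against -2.58, -7.88 and -2.41 on sham 1 to 3. Kcnh1, an EAG gene, had 1.36, 1.46 and 1.03 in the orchidectomized samples and 1.33, 0.53 and 1.46 in sham 1, sham 2 and sham 3. Both were lowest on sham 2, and without it their groups overlapped, with differences of -0.06 and -0.11 inside standard errors of 0.23 and 0.17.

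Kcnma1 encodes the pore of the BK channel, which opens with calcium and voltage and speeds repolarization. Its brightest probe over the 6 arrays had -0.90, -1.01 and -0.51 on orchidectomized 1 to 3, against -1.21, -1.34 and -1.43 on sham 1 to 3. Over the 5 arrays other than sham 2 another probe, which differed by 0.04, was the brightest. All 3 orchidectomized arrays were above all 3 sham arrays, and this was the only channel gene with an unadjusted p under 0.05 in both comparisons. The difference was 0.52 without sham 2, with a standard error of 0.19, and 0.52 with it, with a standard error of 0.21; limma gave adjusted p-values of 0.988 and 0.774. Between the slide mates orchidectomized 3 and sham 1 it was 0.70, and within the first scan day 0.41. The third probe of the same accession differed by 0.11 without sham 2, so the difference of 0.52 was that of 1 probe of 3.

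Kcnmb4, the beta subunit that slows BK channels in the brain, had 2.84, 2.91 and 3.82 in the orchidectomized samples and 2.77, -4.22 and 2.93 in sham 1, sham 2 and sham 3. Orchidectomized 3 was high and the other 4 arrays besides sham 2 lay between 2.77 and 2.93. The SK genes underlie the afterhyperpolarization after spikes. Kcnn1 had -3.33, -3.43 and -3.37 on orchidectomized 1 to 3, against -3.41, -3.64 and -3.37 on sham 1 to 3, and its range over the 5 arrays other than sham 2, 0.10, was the narrowest of the 79 channel genes detected on all of them. Kcnn2 had -2.41, -2.32 and -2.29 in the orchidectomized samples and -2.28, -8.80 and -1.85 in sham 1, sham 2 and sham 3. The orchidectomized values were all below sham 1 and sham 3, with orchidectomized 3 nearly level with sham 1, and the difference was -0.28 with a standard error of 0.17. Kcnn3 had -1.76, -2.11 and -2.27 on orchidectomized 1 to 3, against -1.82, -2.59 and -2.06 on sham 1 to 3. Kcnt1, which encodes a sodium-activated channel, had -0.89, -1.08 and -0.87 in the orchidectomized samples and -1.14, -3.04 and -0.92 in sham 1, sham 2 and sham 3. The groups of both overlapped, and without sham 2 they differed by -0.11 and 0.09, inside standard errors of 0.19 and 0.14.

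The GIRK genes Kcnj3, Kcnj6 and Kcnj9 form channels that open after activation of receptors such as the GABA-B receptor. Kcnj9 had -0.77, -0.85 and -0.54 on orchidectomized 1 to 3, against -0.99, -6.14 and -1.15 on sham 1 to 3. All orchidectomized values were above all sham values, with a difference of 0.35 ± 0.15 (SE; limma adjusted p 0.988) without sham 2, but the second Kcnj9 probe differed by -0.06. Kcnj6 had -0.43, -0.38 and -1.09 in the orchidectomized samples and -0.44, -9.68 and -0.08 in sham 1, sham 2 and sham 3. The groups overlapped without sham 2, and on sham 2 the probe was not well above background. Kcnj3 had 2.70, 2.61 and 2.08 on orchidectomized 1 to 3, against 2.38, 1.13 and 2.58 on sham 1 to 3. It was lowest on sham 2 and differed by -0.02 with a standard error of 0.22, so the 3 GIRK differences did not share a sign.

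Kcnj10 and Kcnj16 form the inward rectifier through which astrocytes take up potassium. Kcnj10 had -5.29, -5.28 and -5.42 in the orchidectomized samples and -5.17, -9.24 and -5.76 in sham 1, sham 2 and sham 3, and its orchidectomized values fell between the 2 sham values besides sham 2. Kcnj16 had -3.94, -3.60 and -2.31 on orchidectomized 1 to 3, against -3.57, -8.84 and -3.55 on sham 1 to 3. Orchidectomized 3 alone was high, and the 1.63 range over the 5 arrays other than sham 2 was among the widest of the family. Kcnj8 and Kcnj11 encode pores of ATP-sensitive channels in vessels and in neurons. Kcnj8 had -1.17, -0.93 and -0.45 in the orchidectomized samples and -1.20, -2.03 and -1.15 in sham 1, sham 2 and sham 3. Kcnj11 had -4.13, -4.02 and -4.48 on orchidectomized 1 to 3, against -4.38, -5.71 and -4.00 on sham 1 to 3. Their groups overlapped, and without sham 2 they differed by 0.32 and -0.02 with standard errors of 0.23 and 0.21. Kcnj14, a classical inward rectifier, had -0.08, -0.16 and -0.33 in the orchidectomized samples and -0.54, -2.37 and -0.41 in sham 1, sham 2 and sham 3. Its orchidectomized arrays were all above its sham arrays, with a difference of 0.28 and a standard error of 0.14 without sham 2.

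Kcnj1, which encodes the ROMK channel of the kidney, had -6.92, -7.23 and -7.30 on orchidectomized 1 to 3, against -6.67, -9.74 and -6.11 on sham 1 to 3. Its signal was well above background on the 3 orchidectomized arrays, sham 1 and sham 3, and not on sham 2. On orchidectomized 2 and 3 it lay near the lowest signal well above background there, -7.69 and -7.65. The difference without sham 2 was -0.76, the largest negative one among the channel genes, with a standard error of 0.22 and a limma adjusted p of 0.988. The second Kcnj1 probe was well above background on 0 of the 6 arrays.

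Among the K2P genes Kcnk1 had 2.21, 2.31 and 2.61 in the orchidectomized samples and 2.28, 4.33 and 2.14 in sham 1, sham 2 and sham 3, and sham 2 was the highest array. Kcnk2, a channel gated by stretch, lipids and anaesthetics, had 0.46, 0.57 and 1.01 on orchidectomized 1 to 3, against 0.64, -4.62 and 0.65 on sham 1 to 3. Its groups overlapped without sham 2. Kcnk9, an acid-sensitive channel gene, had -5.98, -7.19 and -5.69 in the orchidectomized samples and -6.00, -8.63 and -7.35 in sham 1, sham 2 and sham 3. Its groups overlapped too, and its range of 1.66 over the 5 arrays other than sham 2 was the widest of the 79 genes detected on all of them. Kcnk9 was dim on orchidectomized 2 and sham 3, where the lowest signals well above background were -7.69 and -8.21. Kcnk10, a relative of Kcnk2, had -3.60, -3.96 and -3.84 on orchidectomized 1 to 3, against -3.98, -8.53 and -4.12 on sham 1 to 3. Its orchidectomized values were all above its sham values, narrowly for the closest pair, and it differed by 0.25 with a standard error of 0.16 without sham 2.

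Kcnk16, known from the pancreas, had -2.80, -2.96 and -3.35 in the orchidectomized samples and -2.47, -0.74 and -2.52 in sham 1, sham 2 and sham 3. All orchidectomized arrays lay below all sham arrays, and sham 2 was far above the rest. Kcnk5, an acid-sensitive channel of kidney epithelium, had -4.14, -3.76 and -4.45 on orchidectomized 1 to 3, against -3.26, -1.85 and -3.74 on sham 1 to 3. Its orchidectomized arrays lay below all 3 sham arrays too, with sham 2 again highest. Without sham 2 the differences were -0.54 for Kcnk16 and -0.62 for Kcnk5 with standard errors of 0.19 and 0.26, limma giving an adjusted p of 0.988 for both, and the 2 dimmer Kcnk16 probes differed by -0.26 and -0.25. Between orchidectomized 3 and sham 1 alone, which shared a slide, the differences were -0.88 and -1.19.

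The silent Kv subunits do not form channels alone and modify Kv2 channels. Kcnv2, one of these, had -3.23, -3.42 and -3.12 in the orchidectomized samples and -3.44, -3.71 and -3.71 in sham 1, sham 2 and sham 3. Its orchidectomized values were above all sham values, narrowly for the closest pair, and the difference was 0.32 with a standard error of 0.16 without sham 2. The second Kcnv2 probe, well above background on 2 arrays, differed by -1.05, in the opposite direction. Kcnv1 had 0.87, 0.96 and 1.20 on orchidectomized 1 to 3, against 0.95, -7.67 and 0.98 on sham 1 to 3. Its arrays other than sham 2, where it was not well above background, lay within a range of 0.33. Kcns1 had -4.08, -3.92 and -2.73 in the orchidectomized samples and -3.48, -1.04 and -3.69 in sham 1, sham 2 and sham 3. Its orchidectomized values spanned sham 1 and sham 3, and sham 2 was the highest array.

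The remaining members fell in the same range. Without sham 2, the 14 Kir genes, of which 12 were tested, differed between -0.76 and 0.35 with a median of 0.14, and the 13 K2P genes, of which 11 were tested, between -0.62 and 0.39 with a median of 0.05. The 10 silent Kv genes differed between -0.18 and 0.32. Among the KCNE genes, small subunits that slow or trap Kv channels, Kcne1 differed by -0.43, Kcne4 by -0.19 and Kcne5 by 0.40, with standard errors of 0.37, 0.21 and 0.27, and their groups overlapped. The BK beta subunit genes Kcnmb2 and Kcnmb3 differed by 0.26 and -0.60 with standard errors of 0.34 and 0.36, and Kcnrg, a regulator of Kv1 assembly, by -0.03 with a standard error of 0.18. With sham 2 included, the subfamily medians spread further, to 2.04 for Kv4, 1.61 for Kv3 and 1.51 for KChIP, while the SK and IK genes had 0.10.

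Sham 2 changed many of these single differences. With it included, the difference of Kcnd3 was 2.04, that of Kcnj9 2.04, that of Kcnq3 2.93, that of Kcnk10 1.75 and that of Kcnj14 0.91, with standard errors of 1.34, 1.44, 2.04, 1.27 and 0.56. The sign turned for Kcnj1, at 0.36, Kcnh6, at 0.35, and Kcnn2, at 1.97, with standard errors of 0.97, 0.65 and 1.90. It stayed negative for Kcnh2 at -0.17, Kcnk16 at -1.13, Kcnk5 at -1.17 and Kcnn4 at -2.05, and positive for Kcnv2 at 0.36. The extremes over the 81 genes were 3.11 for Kcna4 and -2.15 for Kcnq1, with standard errors of 2.57 and 1.86. Limma called none of these genes, and 0% of all probes were called. Kcna4, Kcnk10, Kcnj1 and Kcnn2 were not well above background on sham 2, so their differences with it rest on a signal near background there. They passed the filter with sham 2 through the orchidectomized group alone, which favours a positive difference.

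**Figure D2:**
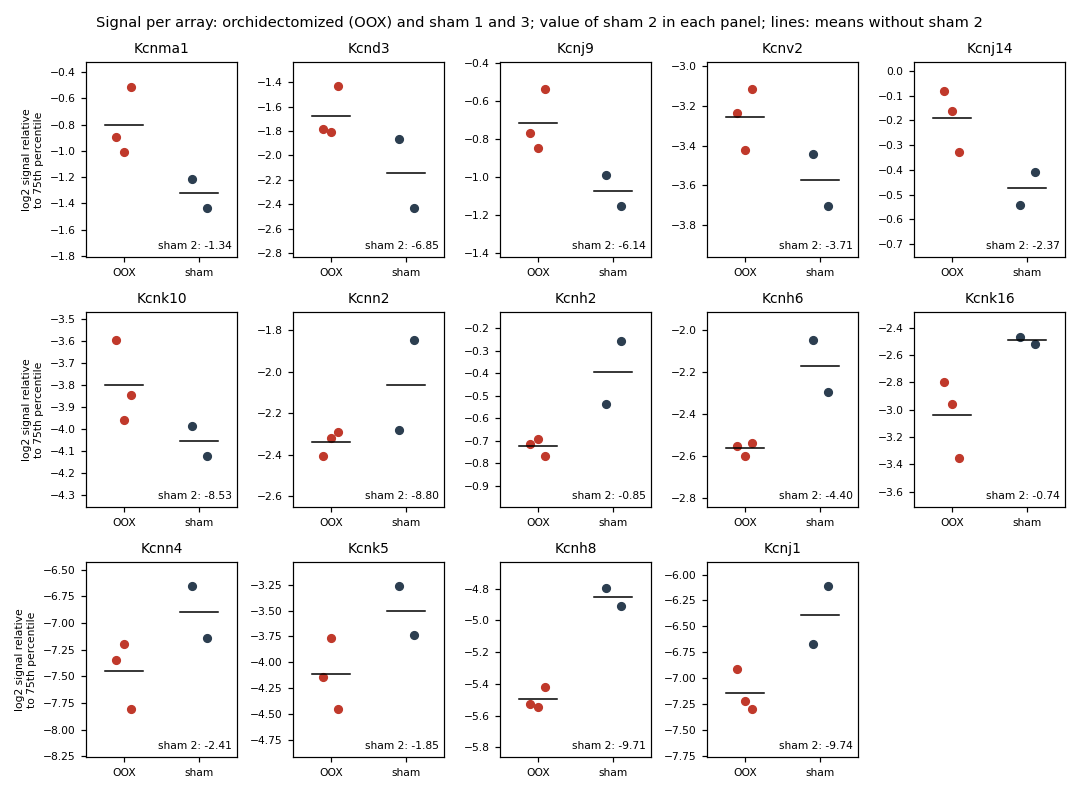
Log2 signal relative to the 75th percentile of each array (vertical axis, with its own range in each panel) for 14 of the 15 channel genes whose orchidectomized (OOX, left, 3 points) and sham (right, sham 1 and sham 3) values did not overlap; lines are group means without sham 2, whose value is printed in each panel. The 6 genes from Kcnma1 to Kcnk10 are higher and the 8 from Kcnn2 to Kcnj1 lower in orchidectomized samples, by at most 0.76.

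Marker lists of other cell types were read without sham 2 in the same way. The 3 blood cell markers had a median difference of -0.84, the 5 myelin markers -0.58 and the 7 choroid plexus markers 0.63, while the glutamatergic, GABAergic and astrocyte lists had -0.16, -0.02 and 0.18. The mean of the myelin list was 2.60, 2.58 and 2.43 on orchidectomized 1 to 3, against 3.00 on sham 1 and 2.78 on sham 3. The part of these shifts in the channel differences was not tested.

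Orchidectomized 3 was the array on which channel genes most often had an extreme value. Among the 79 genes detected on the 5 arrays other than sham 2, it was the highest in 33 and the lowest in 22, while orchidectomized 2 was the highest in 2 and the lowest in 13. Sham 1 was the highest in 15 and the lowest in 18, and sham 3 the highest in 15 and the lowest in 17. Orchidectomized 3 was also the dimmest array, with a 75th percentile of 10.1 in log2 processed signal where the other 5 lay between 10.8 and 11.3. The median range over those 5 arrays was 0.57, and 11 of the 79 genes had a range over 1 log2 unit.

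Sham 2 was outside the range of the other 5 arrays for most channel genes. Of the 82 genes well above background on sham 2 or on all of the others, 69 were below all 5 and 7 above all 5. The median departure from the median of the other 5 was -2.29, with 54 genes, 65.9%, lower by over 1 log2 unit, where 23.3% of 25244 probes were, and 7 genes, 8.54%, higher by over 1, where 20.7% of all probes were. These are counts for 1 array and carry no test. On sham 2, 19 of the 82 genes were not well above background, so their departures are bounds. With dim values set to the lowest signal well above background on their array, 53 channel genes, 64.6%, were lower by over 1, where 22.5% of all probes were, and 6, 7.32%, were higher, where 20.2% of all probes were. In 20 of the 82 the departure was then still more than 5 log2 units downward.

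Several genes were far dimmer on sham 2. Kcnj6 was at least 131-fold dimmer there than on the other 5 arrays, Kcna4 at least 153-fold, Kcnv1, a silent subunit gene, at least 365-fold and Kcnc1 at least 171-fold, where none was well above background on sham 2 and the bound uses the lowest signal that was. These bounds set no order between the genes. Kcnd2 had -5.30 on sham 2, still well above background, against 2.33 to 2.83 on the others, a 249-fold difference. With dim values at their bound, the median departure was -5.05 for the 4 Kv3 genes, -5.04 for the 3 Kv4 genes, -4.81 for the 4 KChIP genes and -2.10 for the 12 Kir genes. All 12 Kir genes were below the other 5 arrays, and Kcnj10 was at least 4.38-fold and Kcnj16 at least 17.4-fold dimmer on sham 2, where neither was well above background. Beside these, the 6 astrocyte markers had a median of -4.62, the 5 GABAergic markers -6.30 and the 5 myelin markers -4.44, and their part in the channel values was not tested.

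Some neuronal subunits were lower on sham 2 by under 1 log2 unit. Kcna1 departed by -0.86, Kcnab1 by -0.88, Kcnh1 by -0.83, Kcnip3 by -0.99 and Kcnn3 by -0.53, and sham 2 was the lowest array for each. Of the same subfamilies, Kcna2 departed by -5.39 and Kcnab2 by -3.28, and Kcnh7 was at least 31.8-fold, Kcnip4 at least 136-fold and Kcnn2 at least 39.1-fold dimmer, none of these 3 being well above background on sham 2. Kcnn1 departed by -0.26 at the probe used and by -1.32 at its second probe, which was the brighter one on the other 5 arrays. The vascular gene Kcnj8 departed by -0.89, and the 6 endothelial and pericyte markers had a median of 0.09. These markers ran from -2.63 for Cldn5 and -0.76 for Abcc9 to 0.62 for Pecam1 and 0.84 for Pdgfrb.

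The 7 genes that were higher by over 1 log2 unit on sham 2 were Kcnq1, Kcnn4, Kcns1, Kcne3, Kcnk1, Kcnk16 and Kcnk5. Kcnq1, known from heart and epithelia, had -3.70, -3.66 and -3.74 on orchidectomized 1 to 3, against -3.54, 2.84 and -3.94 on sham 1 to 3. Its value on sham 2 was 94.1-fold above the mean of the others, and its second probe, the brighter one on the other 5 arrays, departed by 2.75. Kcnn4, the intermediate-conductance calcium-activated channel of blood cells and epithelia, had -7.35, -7.20 and -7.80 in the orchidectomized samples and -6.65, -2.41 and -7.14 in sham 1, sham 2 and sham 3. Sham 2 was far above the rest. The orchidectomized arrays, 2 of 3 well above background, lay below sham 1 and sham 3, with a difference of -0.55 and a standard error of 0.25 without sham 2. Kcnn4 passed the filter without sham 2 through the sham group alone, which favours a negative difference. Its orchidectomized signals lay near the lowest signal well above background on those arrays. Kcne3, an accessory subunit that keeps Kcnq1 channels open in epithelia, was well above background on sham 2 alone and at least 1.92-fold brighter there than on the others. Beside these, the choroid plexus markers had a mean of 4.69 on sham 2 and between -4.67 and -2.75 on the other 5 arrays. The 3 of 5 listed ependymal markers with a named probe had 1.63 against -2.37 to -1.27. Of these, Foxj1 departed by 5.86 and Rsph1 by 5.05, while Tmem212 departed by -0.57 and was inside the range of the other 5 arrays. The part of both marker lists in the channel values was not tested.

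**Figure D3:**
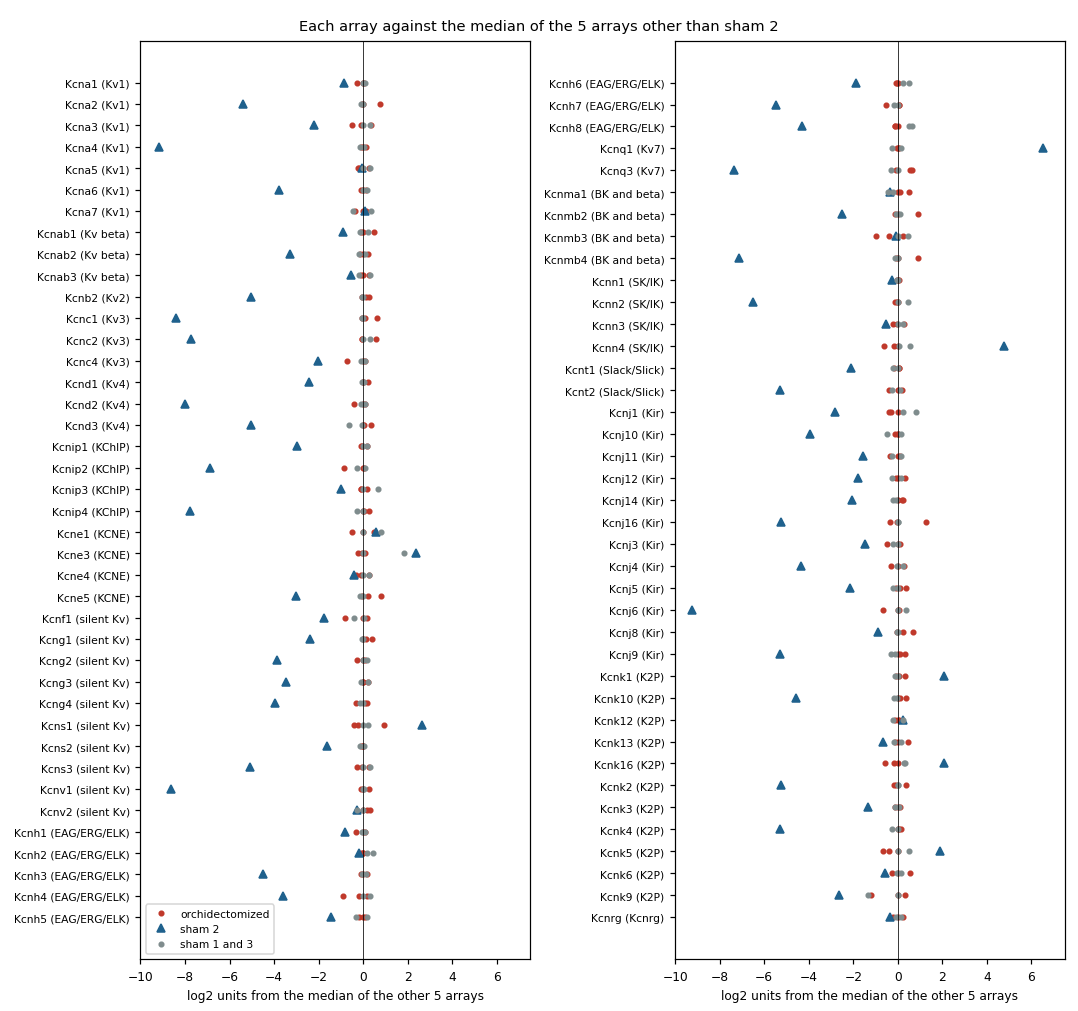
Value of every array minus the median of the 5 arrays other than sham 2 (horizontal axis, log2 units) for 79 of the 82 channel genes well above background on sham 2 or on all the others, by subfamily; triangles are sham 2 and dots the other arrays. The triangles run from -9.25 for Kcnj6, which was not well above background on sham 2, to 6.54 for Kcnq1, and the dots stay near 0 in most rows.

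Probes of a gene did not always move together. Of the 24 channel genes with more than 1 probe, 20 had all their probes on 1 side of 0 in the departure of sham 2, and in 9 the probes lay over 2 log2 units apart. The widest gap was 6.88 for Kcnma1, whose 3 probes for 1 accession departed by -0.34, -7.22 and -3.66, from the brightest to the dimmest. Kcna7, a muscle Kv1 gene, had 0.06 and -4.22. In contrast both Kcnd2 probes departed by about the same amount, -8.02 and -8.22. Without sham 2, 13 of the 22 genes with more than 1 tested probe had differences of 1 sign.

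**Figure D4:**
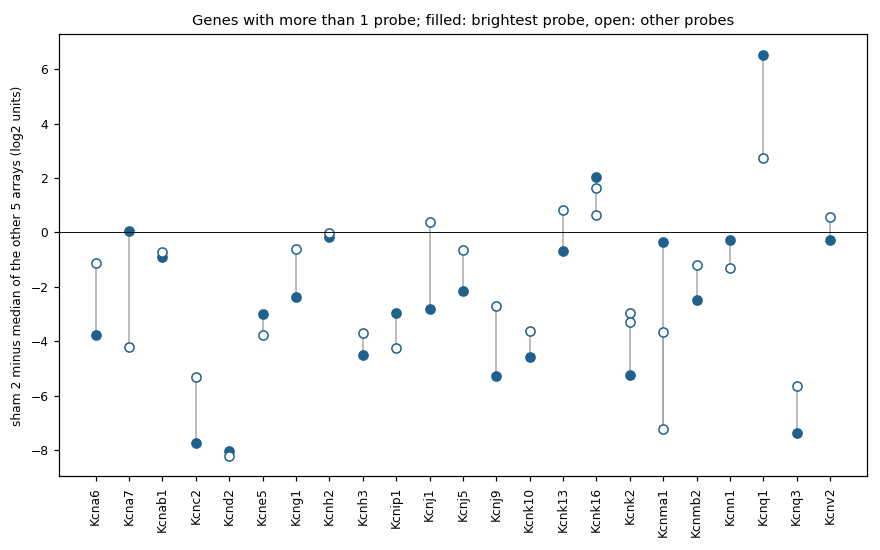
Departure of sham 2 from the median of the other 5 arrays (vertical axis, log2 units) for each probe of 23 of the 24 channel genes with more than 1 probe; filled points are the brightest probe and open points the others, joined by a line. The probes of Kcnma1 spread over 6.88 log2 units, while those of Kcnd2 coincide near -8.

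Partners of the channels outside the Kcn names were read from a list of 28 genes, of which 24 had a named probe and 23 were tested. Without sham 2, limma called 0 of 23, and 0% of all probes tested. Of the 23, 10 had a difference above 0 and 13 below 0, where 44.9% of all probes were above 0. The median was -0.03 and the range -0.33 to 0.32. With sham 2 included, limma called 0 of 23 as well, and 0% of all probes. Of the 23, 17 were then above 0 and 6 below 0, where 48.4% of all probes were above 0, and the median was 0.58. Dpp6, the transmembrane partner of Kv4 channels, differed by 0.09, and Abcc8, the sulfonylurea receptor of ATP-sensitive channels, by -0.16. On sham 2, 13 of 24 were lower by over 1 log2 unit, where 23.3% of all probes were, and 2 higher, where 20.7% of all probes were. Jph3, which ties the endoplasmic reticulum to the plasma membrane, departed by -8.45, the GABA-B receptor subunit gene Gabbr2 by -7.68, Dpp6 by -6.46 and Lgi1, a secreted protein bound to Kv1 complexes, by -6.36. The 2 higher ones were Lrrc52, a BK gamma subunit gene, at 2.28 and the scaffold gene Dlg1 at 1.59. Lrrc52 was well above background on sham 2 alone and at least 2.97-fold brighter there than on the others.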

How the data were processed

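Hippocampal RNA of 6 samples was hybridised, 1 array per sample, after 200 ng was amplified and labelled with Cy3, per the labels' protocols. Per the file headers, the deposited intensity is the background-subtracted and detrended processed signal of Agilent Feature Extraction 10.5.1.1, and the flags used here were set by the same software. In the authors' deposited table each log2 value is the log2 of the processed signal shifted by 1 constant per array, between -0.32 and 0.72, with column medians of 7.62 to 8.05; the origin of the constants, which is its centring, is unknown.

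Of 44254 spots, 1377 control spots and outlier-flagged spots were left out, log2 signals were averaged per probe, and each array's 75th percentile was subtracted. RefSeq accessions, without versions, named 18004 of 30367 probes through the GRCr8 gene table. A probe counted as well above background when at least 50% of its spots did. Probes that did so on every array of either group were tested two-sided with limma 3.58.1 (lmFit, eBayes; R 4.3.3), p-values were adjusted over all of them by Benjamini and Hochberg's method, and the fit was tested on simulated data. The normexp alternative, offset 50, used the median signal, and the other alternatives are given with their effect in the closing section.

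For probes dimmer than this on sham 2, an "at least" fold sets the mean of the bright arrays against the higher of its own value and the lowest signal well above background there. The headers place the arrays on 4 slides and 2 scan days: orchidectomized 1 and 2 shared slide 1, orchidectomized 3 and sham 1 slide 2, sham 2 and sham 3 had a slide each, and both were scanned on the second day. The channel genes with values per array are a list by function, those with an unadjusted p under 0.05, those furthest from the others on sham 2 and those with the largest differences without overlap; Kcnh2, Kcnj14, Kcnk10, Kcnc4, Kcna7, Kcnmb2, Kcnmb3, Kcnrg and the KCNE genes other than Kcne3 were added after their values were seen. Members and lists were chosen with earlier results of these data known. Some genes are counted in the totals and not reported here by name.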

Additional observations from a re-analysis of the deposited data

How the results depend on the processing

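In none of the alternatives run was a channel gene called, over 6 arrays or without sham 2, at a limma adjusted p under 0.05. Over 6 arrays the count of all probes called was 0, and 1 with quantile normalization and 1 with array weights. Without sham 2 it was 0, and 2 with quantile normalization, 1 with median scaling, 18 with the authors' deposited values, 6 with array weights and 10 with scan day as a block. It was 0 to 251 when a further array was left out, 22 without sham 1 and 251 without sham 3, when 1 sham array remains and is assumed to vary like the others.

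The median difference of the channel genes over 6 arrays, 0.79, was 0.49 with normexp, 0.01 under array weights and 0.01 without sham 2. It lay between 0.77 and 1.20 without any other single array. It was 0.51 over the genes well above background on all 6 arrays and 0.61 with no filter on dim probes. With slide as a block it was 0.14, which rests on orchidectomized 3 and sham 1, since no other slide held both groups. With scan day as a block it was 0.01, which sets the orchidectomized arrays against sham 1 alone, since the second day held only sham arrays. Both of these medians were the same with and without sham 2. With the replicate block it was 0.79 and 0 probes were called; the samples share only a number, since same-numbered deviations correlated at 0.03, -0.02 and -0.02. Without sham 2 the median stayed between -0.02 and 0.14 in every setting. Normexp moved the median of all tested probes to 0.08, and 60 channel genes were then above 0 and 21 below; 38 were above 0 with array weights. The cause was not tested. The counts on sham 2, 54 lower and 7 higher, were 44 and 6 with normexp, 54 and 7 with quantile or median scaling 56 and 7 with the deposited values, 56 and 7 with the brightest probe chosen without sham 2, and 53 and 6 with dim values at their bound, settings added after the data were seen. With that choice of probe, added likewise, 42 channel genes were above 0 and 39 below without sham 2, and Kcnma1 no longer had an unadjusted p under 0.05. Named genes without sham 2 kept their sign in 633 gene and setting pairs and turned it, uncalled, in 70. Over the alternatives that compare with more than 1 sham array, the smallest limma adjusted p of a channel gene without sham 2 was 0.496, with array weights. With sham 2 included it was 0.550, when sham 3 was left out. Dim probes, at or near background, limit what the lower values show.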
